A study of Mus musculus with 6 samples.

Results

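The EMT transcription factors and their partners are 10 genes that were followed by name through the count table, which holds 18512 gene entries in all. They are the zinc finger repressors Snai1, Snai2, Zeb1 and Zeb2, the basic helix-loop-helix factors Twist1 and Twist2, and the partner factors Sox4, Ets1, Hmga2 and Prrx1. Of the 10 genes, 9 passed the filter on low values (a mean of at least 20 normalized counts over the libraries, passed by 13353 of the 18512 entries), and Twist1 did not. NMuMG cells, an established mouse mammary gland epithelial line, were given the vehicle DMSO, TGF-β or both TGF-β and 2APB (the TGF-β+2APB group), with 2 replicate libraries per group and 6 libraries in all. The study describes 2APB as a blocker of calcium entry that follows store release, through the channels ORAI1 and ORAI2. It also reports that 2APB raised calcium entry through the channel ORAI3. The methods of the study give 5 ng/ml for TGF-β and 50 µM for 2APB, and describe 2APB as added ahead of TGF-β. They give no time for RNA sequencing in particular, but the study's results section states a day of treatment for the cells that were sequenced. The labels give no time, so the order and exact length of each treatment are not settled. There was no group given 2APB without TGF-β, so every 2APB value below is in the presence of TGF-β. The labels give neither the number of cells nor the culture behind each library, while the methods call the replicates biological.

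Epithelial-mesenchymal transition (EMT) is the switch by which epithelial cells lose their junctions and gain migratory properties, and TGF-β is its best known inducer in cultured mammary epithelium. SNAI and ZEB proteins bind E-box letters in DNA and recruit corepressors to epithelial genes such as Cdh1, which encodes E-cadherin. TWIST proteins bind E-boxes as dimers with E proteins, SOX4 and ETS1 are DNA-binding activators linked to TGF-β responses, HMGA2 is an architectural chromatin protein that works with SMADs, and PRRX1 is a homeodomain factor of mesenchymal cells.

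The promoters of 5 members are shown because the results turn on them. Snai1 is the gene the study set out from, and Zeb2 and Hmga2 rose with TGF-β. Twist2 rose with TGF-β and had a lower mean in TGF-β+2APB than in TGF-β. Sox4 rose with TGF-β+2APB against both other groups. Each line is the 250 bases before the annotated start of the transcript, written 5′ to 3′ on the gene's strand, from RefSeq (GRCm38.p6). Capitals mark the E-box CACCTG, the SMAD element CAGAC and the AP-1 site TGANTCA on either strand.
Snai1 (chr2:167537945-167538194, plus strand): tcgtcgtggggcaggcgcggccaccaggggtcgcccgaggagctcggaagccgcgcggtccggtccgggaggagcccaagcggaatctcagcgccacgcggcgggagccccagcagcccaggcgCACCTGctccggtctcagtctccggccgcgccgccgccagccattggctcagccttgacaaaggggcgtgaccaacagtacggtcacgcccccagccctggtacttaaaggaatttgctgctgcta
Zeb2 (chr2:45110278-45110527, minus strand, 1 of 4 annotated starts): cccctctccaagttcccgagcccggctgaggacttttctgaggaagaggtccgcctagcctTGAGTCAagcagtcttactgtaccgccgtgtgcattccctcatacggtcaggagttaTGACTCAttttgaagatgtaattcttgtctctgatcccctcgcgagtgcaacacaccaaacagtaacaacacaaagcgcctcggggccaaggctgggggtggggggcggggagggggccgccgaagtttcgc
Twist2 (chr1:91801211-91801460, plus strand): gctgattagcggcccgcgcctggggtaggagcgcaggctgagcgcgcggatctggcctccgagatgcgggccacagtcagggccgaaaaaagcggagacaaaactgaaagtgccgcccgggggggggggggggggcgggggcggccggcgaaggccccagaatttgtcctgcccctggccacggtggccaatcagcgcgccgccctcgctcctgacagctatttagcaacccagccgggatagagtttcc
Sox4 (chr13:28953700-28953949, minus strand): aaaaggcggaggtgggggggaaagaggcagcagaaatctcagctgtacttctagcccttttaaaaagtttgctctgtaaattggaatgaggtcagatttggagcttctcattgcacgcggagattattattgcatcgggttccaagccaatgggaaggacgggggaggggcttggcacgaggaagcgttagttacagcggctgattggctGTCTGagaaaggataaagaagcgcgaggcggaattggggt
Hmga2 (chr10:120476470-120476719, minus strand): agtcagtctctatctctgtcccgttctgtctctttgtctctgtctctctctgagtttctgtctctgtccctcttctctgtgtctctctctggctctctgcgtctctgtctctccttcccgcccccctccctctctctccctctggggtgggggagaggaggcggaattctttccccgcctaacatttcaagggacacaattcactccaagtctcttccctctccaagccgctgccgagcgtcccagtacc

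RefSeq promoter windows were searched for 7 of the 10 genes (Snai1, Zeb2, Twist1, Twist2, Sox4, Hmga2 and Prrx1). Entries on chromosome 18, where Zeb1 lies, were left out of the search. Searched on both strands, CACCTG was found in the Snai1 window, where its first base lies 126 bases before the start. Of 32851 mouse promoter windows of the same length, 17.2% hold that E-box. The SMAD letters CAGAC were found in the windows of Sox4 (40 bases before the start), Prrx1 (19 bases) and Twist1 (9 bases), beside 42.2% of all windows. The Zeb2 window holds the AP-1 letters at 189 and at 132 bases before the start, and 6.7% of all windows hold them. The windows of the 3 other annotated Zeb2 starts hold none. The Twist2 and Hmga2 windows hold none of these letters. The NF-kB motif, searched as GGGRNNYYCC (R is A or G, Y is C or T) and present in 7.3% of all windows, was in none of the windows of these 7 genes. These are matches of letters in a short window and show no binding. The study marks putative NF-kB sites over a longer stretch of the Snai1 promoter and reports the NF-kB subunit p65 bound there. The short window does not speak to those sites.

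The libraries held 71840570 to 79473182 counts. The cell type label was checked against 6 epithelial markers, which were detected in all 6 libraries, led by the keratins Krt8 and Krt18. Krt7, Krt8 and Krt18 were higher in the treated libraries than in DMSO, while Cdh1 and Krt19 were lower there. Epcam was low throughout, at 50.6 to 163.2 normalized counts. Endothelial markers summed to at most 49.3 normalized counts. Replicate 2 of TGF-β+2APB stood apart: its 4 immune markers (Ptprc, Itgam, Cd68 and Cd3e) summed to 2368 normalized counts, beside 166 in replicate 1 and 216 to 704 in the other 4 libraries, and 4 Y-linked genes summed to 178 deposited counts there and to 0 to 32 elsewhere. Other libraries also carried transcripts not seen in DMSO: the salivary gland genes Smr3a and Spt1 had 0 deposited counts in both DMSO libraries and TGF-β replicate 1, 578 and 558 in TGF-β replicate 2, 1640 and 1080 in TGF-β+2APB replicate 1, and 2992 and 1010 in TGF-β+2APB replicate 2. Of the 4 measured fibroblast markers, Dcn and Thy1 stayed at 5.9 normalized counts or lower, while Pdgfra and Col6a3 were higher in TGF-β+2APB, and the list summed to 353 and 384 there, to 116 and 117 in TGF-β and to 78.5 and 80.6 in DMSO. The 2 measured adipocyte markers, almost wholly Cidec, summed to 143.5 and 165.3 in DMSO and to 7.9 or less in the 4 treated libraries. The part of other cells in the results was not tested. Below, the counts of members called are also given without replicate 2 of TGF-β+2APB. So is the step from TGF-β to TGF-β+2APB in Snai1, Twist2, Sox4 and Ets1. For the other tested members that step without this library is only drawn in a figure. Genes of the related lists further below are given no value without it. In bulk RNA, fewer cells of a type and less RNA per cell cannot be told apart.

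TGF-β raised most of the group. With edgeR's quasi-likelihood test and Benjamini-Hochberg adjustment over all 13353 tested genes, 7 of the 9 tested members were called higher in TGF-β than in DMSO at an adjusted p of at most 0.05, and none was called lower. Over all tested genes 41.5% were called, 21.8% higher and 19.7% lower. The median log2 fold change of the 9 members was 1.34, and that of all tested genes was -0.01. The 7 genes were Snai1, Snai2, Zeb1, Zeb2, Twist2, Ets1 and Hmga2. Sox4 and Prrx1 did not pass. Snai1 averaged 9.15 normalized counts in DMSO and met the filter on low values only through TGF-β (33.4) and TGF-β+2APB (52.4). With no filter its edgeR adjusted p in TGF-β against DMSO was 0.047. In TGF-β+2APB against DMSO, 8 of 9 members were called higher and none lower, with Sox4 joining the same 7, against 52.8% of all tested genes called, 25.6% higher and 27.2% lower. In TGF-β+2APB against TGF-β, 2 of 9 members were called, Sox4 and Ets1, both higher, against 17.5% of all tested genes, 6.58% higher and 10.9% lower. Without replicate 2 of TGF-β+2APB the counts of members called were 7, 8 and 2 in the same comparisons.

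**Figure D1:**
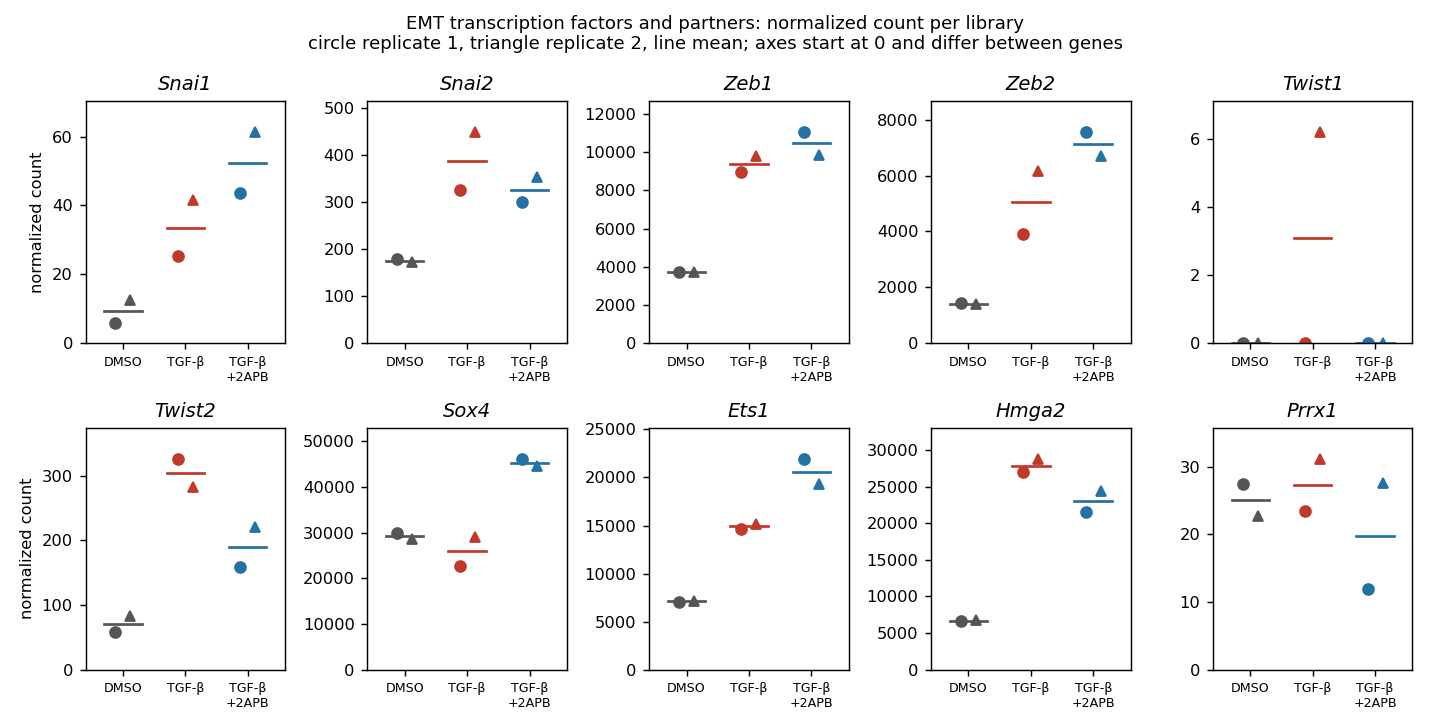
Normalized count (vertical axes, which start at 0 and differ between genes) of the 10 genes in each library by group; circles are replicate 1, triangles replicate 2 and lines the mean of 2. In 7 panels both TGF-β libraries lie above both DMSO libraries with an adjusted p of at most 0.05, while Sox4 is high in the TGF-β+2APB libraries, at 46082 and 44509, and Twist1 is at 0 in all but 1 library.

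Snai1 encodes the zinc finger repressor SNAI1, a direct repressor of Cdh1. Its deposited counts were low, at 6 and 12 in DMSO, 26 and 40 in TGF-β, and 44 and 62 in TGF-β+2APB. After normalization these were 5.9 and 12.4 in DMSO, 25.3 and 41.5 in TGF-β, and 43.6 and 61.2 in TGF-β+2APB. The 3 groups did not overlap, the means stepped upward from DMSO to TGF-β to TGF-β+2APB, and replicate 2 was above replicate 1 in each group. Against DMSO the fitted fold change was 3.63 in TGF-β (log2 1.86, SE 0.52, edgeR adjusted p = 0.0341) and 5.68 in TGF-β+2APB (log2 2.51, SE 0.52, edgeR adjusted p = 0.00927). The step between the treated groups was 1.57-fold and did not pass (log2 0.65, SE 0.47, edgeR adjusted p = 0.385), with a 95% interval of the log2 difference from -0.51 to 1.81. Without replicate 2 of TGF-β+2APB that step was 0.39 (SE 0.53). The call in TGF-β was lost when DMSO replicate 1, DMSO replicate 2 or TGF-β replicate 2 was left out, with edgeR adjusted p-values of 0.179, 0.0625 and 0.0869 (0.024 to 0.179 over 14 alternatives). The call in TGF-β+2APB against DMSO was lost without DMSO replicate 1 (edgeR adjusted p = 0.0618, the highest of 14 alternatives, down to 0.00103).

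Snai2 encodes SLUG, the closest relative of SNAI1 among the members. It stood at 178.9 and 171.5 normalized counts in DMSO, at 325.3 and 448.2 in TGF-β, and at 299 and 353.2 in TGF-β+2APB. Both treated groups lay above DMSO, and the treated groups overlapped each other. The rise was 2.21-fold in TGF-β (log2 1.14, SE 0.21, edgeR adjusted p = 0.00819) and 1.86-fold in TGF-β+2APB (log2 0.90, SE 0.21, edgeR adjusted p = 0.0149). Between the treated groups the log2 difference was -0.25, with a 95% interval from -0.76 to 0.27. Leaving out either DMSO library ended both calls against DMSO, with edgeR adjusted p-values from 0.0608 to 0.0918, while the other alternatives went as low as 8.61e-05 in TGF-β and 0.00166 in TGF-β+2APB.

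Zeb1 and Zeb2 encode large repressors with zinc finger clusters at either end of the protein, and members of the microRNA-200 family are known to hold them down in epithelial cells. Zeb1 stood at 3707 and 3715 normalized counts in DMSO, at 8964 and 9824 in TGF-β, and at 11041 and 9877 in TGF-β+2APB. All 4 treated libraries were above both DMSO libraries, whose values lay close together. The rise was 2.53-fold in TGF-β (log2 1.34, SE 0.09, edgeR adjusted p = 0.000268) and 2.82-fold in TGF-β+2APB (log2 1.49, SE 0.09, edgeR adjusted p = 0.000115). The treated groups did not overlap, yet their log2 difference of 0.15 did not pass (95% interval -0.07 to 0.38, edgeR adjusted p = 0.284). Zeb2 stood at 1443 and 1380 in DMSO, at 3898 and 6176 in TGF-β, and at 7547 and 6716 in TGF-β+2APB. The TGF-β replicates were far apart, and both lay between the DMSO and the TGF-β+2APB values. The rise was 3.57-fold in TGF-β (log2 1.84, SE 0.22, edgeR adjusted p = 0.00183) and 5.05-fold in TGF-β+2APB (log2 2.34, SE 0.22, edgeR adjusted p = 0.000517). The difference between the treated groups was 0.50 on the log2 scale (SE 0.21, 95% interval -0.03 to 1.03, edgeR adjusted p = 0.165) and turned on TGF-β replicate 2: without that library it was 0.87 and passed (edgeR adjusted p = 0.00326), whereas no other alternative of the 16 passed and the adjusted p reached 0.47.

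Twist1 and Twist2 are close paralogs whose proteins need a dimer partner. Twist1 had 0 deposited counts in 5 libraries and 6 in TGF-β replicate 2, so no fold change is given, and a count of 0 allows up to 3 counts per library by counting error alone. All deposited counts are even, and that limit would be higher if counts had been doubled. Twist2 was measured in all 6 libraries, at 59.0 and 82.6 normalized counts in DMSO, 325.3 and 282.2 in TGF-β, and 158.4 and 221.0 in TGF-β+2APB. The groups were fully separated, with TGF-β highest and DMSO lowest. The rise was 4.29-fold in TGF-β (log2 2.10, SE 0.28, edgeR adjusted p = 0.00276) and 2.68-fold in TGF-β+2APB (log2 1.42, SE 0.28, edgeR adjusted p = 0.0077). TGF-β+2APB against TGF-β gave a log2 difference of -0.68 (SE 0.27, 95% interval -1.35 to -0.01), which did not pass after adjustment (edgeR adjusted p = 0.144). Without replicate 2 of TGF-β+2APB it was -0.94 (edgeR adjusted p = 0.116, with 0.115 to 0.412 over 16 alternatives). Without DMSO replicate 1 the call in TGF-β+2APB against DMSO was lost (edgeR adjusted p = 0.056, the highest of 16 alternatives, down to 7.29e-05). Of the windows of 50 bases in the longest Twist2 transcript, 57.3% are shared with Gm29100, an antisense gene that has no row of its own. The strand setting of the counting is not given in the sources used here, so reads of the 2 genes cannot be told apart.

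Sox4 encodes a high mobility group box factor, and it differed from the other called genes in that TGF-β by itself left it near the DMSO level. Its normalized counts were 29919 and 28596 in DMSO, 22765 and 29048 in TGF-β, and 46082 and 44509 in TGF-β+2APB. The DMSO and TGF-β values overlapped, and both TGF-β+2APB libraries lay above all others. TGF-β+2APB was 1.75-fold above TGF-β (log2 0.81, SE 0.12, edgeR adjusted p = 0.0126) and 1.55-fold above DMSO (log2 0.63, SE 0.12, edgeR adjusted p = 0.00736). TGF-β against DMSO gave a log2 difference of -0.18 with a 95% interval from -0.48 to 0.13, and the fall was called only without TGF-β replicate 2, at -0.36 (edgeR adjusted p = 0.00369, with up to 0.958 over 16 alternatives). Without replicate 2 of TGF-β+2APB, the rise over TGF-β was 0.83 and passed (edgeR adjusted p = 0.0354), while without replicate 1 it was 0.75 and did not pass (edgeR adjusted p = 0.0544, the highest of 16 alternatives, down to 2.31e-07). The rise over DMSO was lost without DMSO replicate 2 (edgeR adjusted p = 0.0601, the highest of 16 alternatives, down to 2.79e-05). Sox4 has a single exon, and 54.1% of its windows of 50 bases are shared with the antisense gene Gm26735, which has no row in the table either.

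Ets1 encodes the founding ETS family activator and was the other member called between the treated groups. It stood at 7090 and 7173 normalized counts in DMSO, at 14668 and 15155 in TGF-β, and at 21897 and 19308 in TGF-β+2APB. The 3 groups were separated in that order. The rise over DMSO was 2.09-fold in TGF-β (log2 1.06, SE 0.08, edgeR adjusted p = 0.000442) and 2.89-fold in TGF-β+2APB (log2 1.53, SE 0.09, edgeR adjusted p = 8.51e-05). TGF-β+2APB was 1.38-fold above TGF-β (log2 0.47, SE 0.08, edgeR adjusted p = 0.0187). Without TGF-β+2APB replicate 2 the difference was 0.55 and passed (edgeR adjusted p = 0.0435). It did not pass without TGF-β+2APB replicate 1 (0.34, edgeR adjusted p = 0.156), without DMSO replicate 1 or 2 (edgeR adjusted p = 0.0742 and 0.0753), or in a fit of the 4 TGF-β and TGF-β+2APB libraries alone (edgeR adjusted p = 0.0717), with the log2 difference itself at 0.47 in the last 3. Over 16 alternatives the adjusted p ran from 6.99e-06 to 0.156, and 11 passed.

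Hmga2 had the smallest adjusted p of the members in both comparisons with DMSO. It stood at 6590 and 6752 normalized counts in DMSO, at 26959 and 28731 in TGF-β, and at 21576 and 24349 in TGF-β+2APB. All treated libraries were above DMSO, and both TGF-β+2APB libraries were below both TGF-β libraries. The rise was 4.17-fold in TGF-β (log2 2.06, SE 0.09, edgeR adjusted p = 7.63e-05) and 3.44-fold in TGF-β+2APB (log2 1.78, SE 0.09, edgeR adjusted p = 6.18e-05). The difference between the treated groups was -0.28 (SE 0.08, 95% interval -0.49 to -0.07) and did not pass (edgeR adjusted p = 0.0782), though it did without TGF-β replicate 1 (edgeR adjusted p = 0.0324) and with DESeq2 (adjusted p = 0.032), with up to 0.358 over 16 alternatives. Prrx1 had few counts, at 27.5 and 22.7 normalized counts in DMSO, 23.4 and 31.1 in TGF-β, and 11.9 and 27.6 in TGF-β+2APB. Its groups overlapped in all 3 comparisons. Its log2 differences from DMSO were 0.12 (95% interval -1.10 to 1.33) in TGF-β and -0.35 (95% interval -1.58 to 0.89) in TGF-β+2APB.

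**Figure D2:**
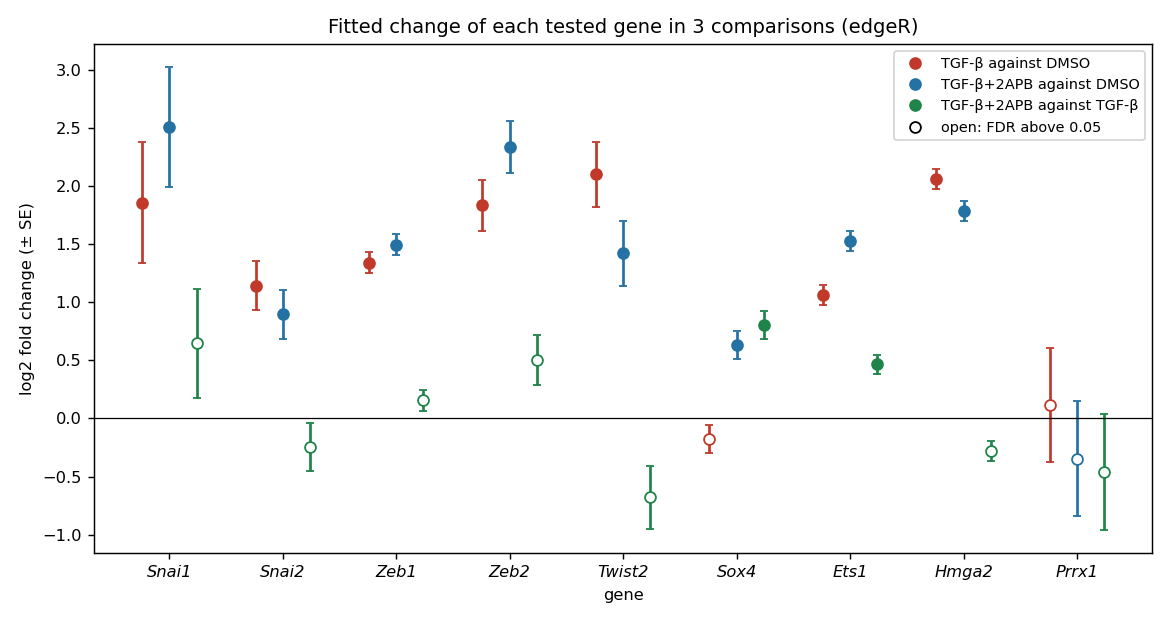
Log2 fold change (vertical axis; bars are ± SE from edgeR) of the 9 tested genes in the 3 comparisons, which are coloured; filled points have an adjusted p of at most 0.05. The filled points of TGF-β+2APB against TGF-β are Sox4 at 0.81 and Ets1 at 0.47, and no filled point lies below 0.

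Over the 3 groups the members moved in unlike ways after 2APB was added to TGF-β. The mean was higher in TGF-β+2APB than in TGF-β for Snai1, Zeb1, Zeb2, Sox4 and Ets1, and lower for Snai2, Twist2, Hmga2 and Prrx1. The median log2 difference over the 9 was 0.16, with values from -0.68 (Twist2) to 0.81 (Sox4), beside a median of -0.004 over all tested genes. Apart from Sox4 and Ets1 these directions did not pass the test. At an unadjusted p under 0.05 there were 4 members (Sox4, Ets1, Hmga2 and Twist2), and DESeq2 called 3.

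**Figure D3:**
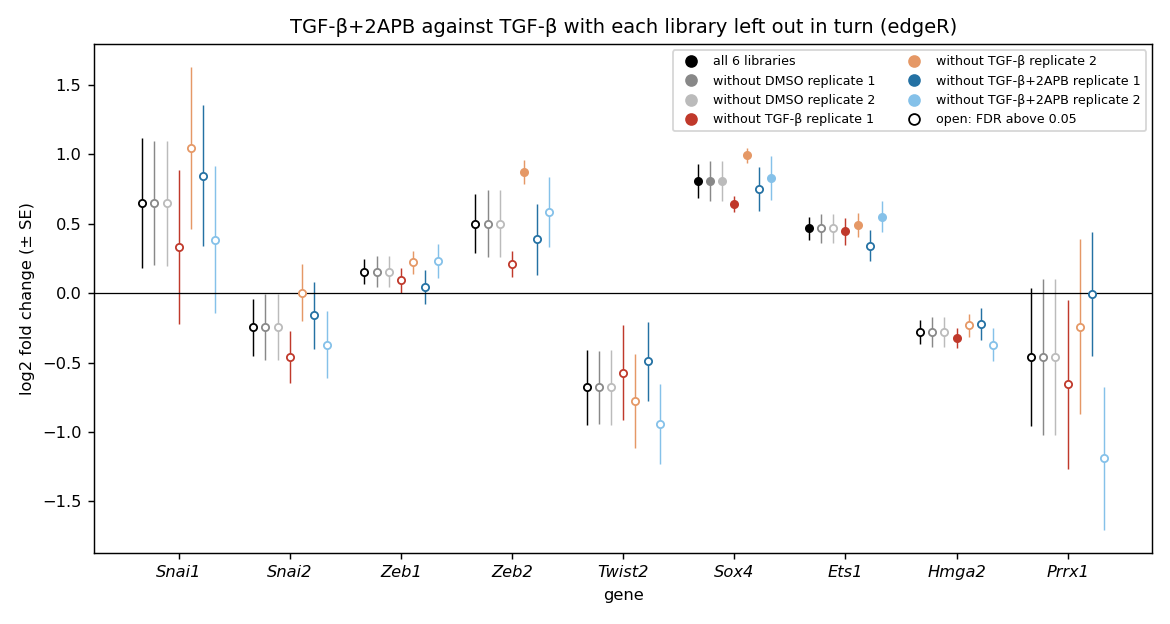
Log2 fold change of TGF-β+2APB against TGF-β (vertical axis; bars are ± SE) for the 9 tested genes fitted on all 6 libraries and on each set of 5, by colour; filled points have an adjusted p of at most 0.05. Sox4 runs from 0.64 to 0.99 and Ets1 from 0.34 to 0.55, each above 0 in every fit drawn, whereas Snai2 runs from -0.46 to 0.00.

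Levels can be compared between genes only per length. Per kilobase of the longest annotated transcript, the DMSO means ran from Sox4 at 6102 normalized counts per kb, through Hmga2 at 1751, Ets1 at 1404, Zeb1 at 640, Zeb2 at 155, Snai2 at 86.7 and Twist2 at 28.0, to Snai1 at 5.65 and Prrx1 at 3.85. Neighbours in that order were separated in both DMSO libraries except Snai1 and Prrx1, whose values overlapped. With TGF-β, Hmga2 at 7308 per kb (SD 329) stood above Sox4 at 5403 (SD 927). With TGF-β+2APB, Sox4 was first again at 9446 per kb (SD 232), ahead of Hmga2 at 6027 (SD 515) and Ets1 at 4056 (SD 360). Snai1 reached 20.6 per kb in TGF-β and 32.3 in TGF-β+2APB, and so stayed below every other member with a called rise. When lengths were taken as all merged exons, Sox4 stood above Hmga2 in TGF-β too, at 5403 against 4112 per kb, and Snai2 stood above Zeb2 in DMSO, at 86.7 against 70.8.

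**Figure D4:**
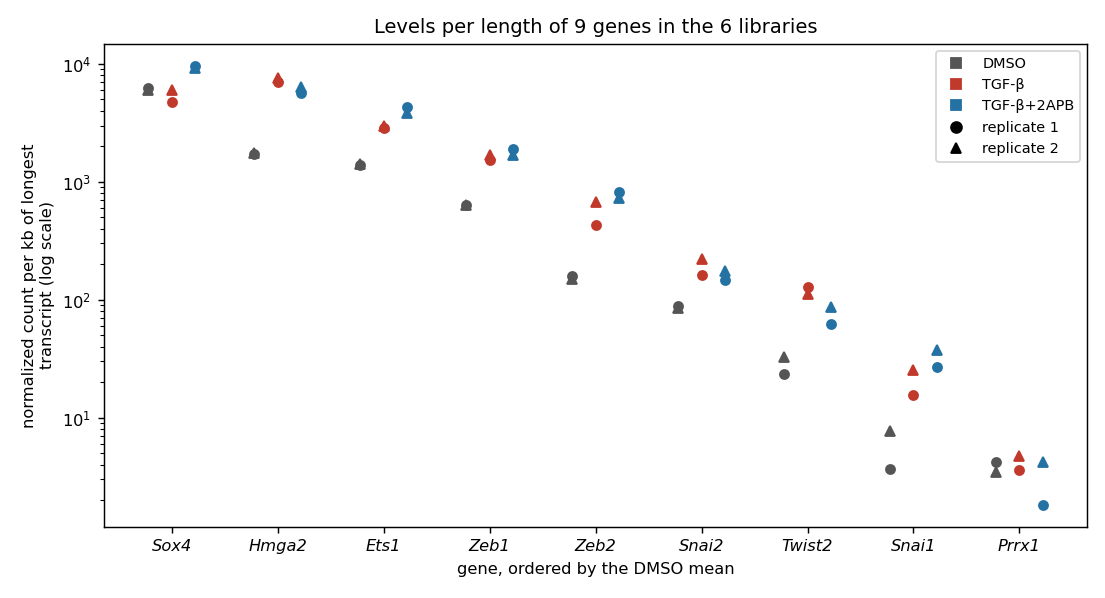
Normalized count per kb of the longest transcript (vertical axis, log scale) for 9 genes in each library, ordered by the DMSO mean; colours are groups, circles replicate 1 and triangles replicate 2. DMSO means run from 3.85 per kb for Prrx1 to 6102 per kb for Sox4; Twist1, at 0 in 5 libraries, is not drawn.

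Likeness of pattern was measured as the Euclidean distance between log2 values (normalized count plus 1, centred on the DMSO mean) over the 6 libraries. Among the 36 pairs of tested members Zeb1 and Ets1 were closest, at 0.40, followed by Twist2 with Hmga2 at 0.68 and Snai1 with Zeb2 at 0.87. In the search over the 13352 other tested genes, Ets1 had the nearest neighbour of any member, Mapk6, at 0.06. Mapk6 stood at 8583 and 8524 normalized counts in DMSO, 17354 and 17658 in TGF-β and 25813 and 23064 in TGF-β+2APB. For Zeb1 the nearest genes were Gjc1 (0.09) and Sgtb (0.15), for Snai2 Nr2f1 (0.23) and Otud4 (0.27), for Hmga2 Pls3 (0.23) and Ivl (0.29), and for Sox4 Dyrk2 and Cpeb2 (both 0.21). Tns3 was the second gene for Ets1 (0.14). Col27a1 (0.28) and Pla2g4a (0.33) were nearest to Zeb2, Dtna (0.32) and Fkbp11 (0.36) to Prrx1, Kcnq5 (0.43) and Btn1a1 (0.44) to Twist2, and 8030442B05Rik (0.61) and F730043M19Rik (0.76) to Snai1. The larger distances belong to members with few counts, and all points share libraries and depth.

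Positions below are those of the whole gene, and exon numbers those of its longest annotated transcript (GENCODE, GRCm38). Snai1 lies at chr2:167538195-167542814 on the plus strand with 3 exons, and Zeb2 on the same chromosome at chr2:44983632-45117395 on the minus strand with 11. Twist2 (chr1:91801461-91848028, plus) and Prrx1 (chr1:163245119-163313710, minus) share chromosome 1. Sox4 lies at chr13:28948919-28953713 (minus), Ets1 at chr9:32636221-32757820 (plus, 8 exons), Hmga2 at chr10:120361275-120476469 (minus, 6 exons), Snai2 at chr16:14705852-14709385 (plus, 3 exons) and Twist1 at chr12:33957671-33959829 (plus, 2 exons). No window of 50 bases was shared between any pair of members, so the paralogs Snai1 and Snai2, Zeb1 and Zeb2, and Twist1 and Twist2 could be counted apart. Windows shared with genes outside the group made up 0% for Snai1, Zeb1, Twist1 and Ets1, 0.32% for Prrx1, 0.96% for Snai2, 1.36% for Zeb2 and 4.36% for Hmga2.

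Of 12 tested genes in a list of further EMT-linked transcription factors, 8 were higher and 3 lower in TGF-β than in DMSO, 7 were higher and 2 lower in TGF-β+2APB than in DMSO, and 3 were higher and 1 lower in TGF-β+2APB than in TGF-β. The largest rise was in Prrx2, the paralog of Prrx1, which stood at 7.9 and 10.3 normalized counts in DMSO, 329.2 and 294.7 in TGF-β, and 568.2 and 524.8 in TGF-β+2APB. Its groups were separated in that order. Prrx1 was not called, but with its few counts the 95% intervals were wide, so whether it moved is not settled. On the log2 scale they ran from -1.10 to 1.33 in TGF-β against DMSO and from -1.58 to 0.89 in TGF-β+2APB against DMSO. The log2 rise of Prrx2 was 5.08 in TGF-β (SE 0.22, edgeR adjusted p = 7.94e-05), and TGF-β+2APB was a further 0.81 above TGF-β (SE 0.17, edgeR adjusted p = 0.0278). Foxq1 and Runx1, both DNA-binding factors linked to EMT, were the other genes called higher between the treated groups, at 0.59 and 0.68. The calls of this list between the treated groups ran from 0 to 7 over 16 alternatives. Of all tested genes, 41.5% were called in TGF-β against DMSO, 52.8% in TGF-β+2APB against DMSO and 17.5% between the treated groups. The same shares stand beside the counts of every list below. Hmga1, the relative of Hmga2, was 1.23 higher in TGF-β than in DMSO on the log2 scale (edgeR adjusted p = 0.0149) and then lower in TGF-β+2APB than in TGF-β, at -1.10 (edgeR adjusted p = 0.0426), where the difference in Hmga2 was -0.28. Snai3, the third SNAI gene, was lower in TGF-β than in DMSO, at -1.51 (SE 0.39, edgeR adjusted p = 0.027), from 108.1 and 80.6 normalized counts to 35.1 and 31.1. Ets2, the relative of Ets1, was lower in both treated groups than in DMSO, at -1.11 and -1.20.

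TWIST proteins pair with E proteins (Tcf3, Tcf4 and Tcf12), and Id proteins hold E proteins in dimers that do not bind DNA. Of 6 tested genes of this kind, 1 was higher and 3 lower in TGF-β than in DMSO, and 3 were higher and 3 lower in TGF-β+2APB than in DMSO. The 3 lower genes in each were Id1, Id2 and Id3. Id1 stood at 18179 and 16101 normalized counts in DMSO, 7098 and 5570 in TGF-β, and 1370 and 1687 in TGF-β+2APB. The groups were separated in falling order, with log2 changes from DMSO of -1.44 (SE 0.16, edgeR adjusted p = 0.00147) and -3.49 (SE 0.18, edgeR adjusted p = 6.6e-05). Between the treated groups 0 were higher and 2 lower, Id1 at -2.05 (edgeR adjusted p = 0.00358) and Id2 at -1.53 (edgeR adjusted p = 0.0144). Tcf3 was higher in both treated groups than in DMSO, at 0.26 and 0.35, while Tcf4 passed only against DMSO in TGF-β+2APB, at 0.98 (edgeR adjusted p = 0.0383).

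Of 17 corepressors and chromatin enzymes recruited by SNAI and ZEB proteins, 7 were higher and 1 lower in TGF-β than in DMSO, 6 were higher and 2 lower in TGF-β+2APB than in DMSO, and 1 was higher and 2 lower between the treated groups. The shares called were near those over all tested genes (41.5%, 52.8% and 17.5%). Loxl2, a lysyl oxidase family member known as a SNAI1 partner, stood at 5179 and 5136 normalized counts in DMSO, 14325 and 13626 in TGF-β, and 19192 and 16810 in TGF-β+2APB. Its groups were separated in the same order as those of Ets1. Its log2 changes from DMSO were 1.44 and 1.80, and between the treated groups 0.37 (SE 0.09, edgeR adjusted p = 0.0417). Suv39h1, a histone H3 lysine methyltransferase, was higher in TGF-β than in DMSO (0.97, edgeR adjusted p = 0.00388) and lower in TGF-β+2APB than in TGF-β (-1.01, edgeR adjusted p = 0.0109). Ehmt2, another enzyme of that kind, was lower in both treated groups than in DMSO, at -0.45 and -0.51. The medians of the list were 0.19, 0.21 and 0.05 in the 3 comparisons.

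Of 15 tested genes for enzymes acting on the stability of the SNAI1 protein, 6 were higher and 3 lower in TGF-β than in DMSO. In TGF-β+2APB 6 were higher and 4 lower than in DMSO, and 1, Ctdspl, was lower between the treated groups. Beside this list and the next, 41.5%, 52.8% and 17.5% of all tested genes were called in the 3 comparisons. Ctdspl, a small C-terminal domain phosphatase, stood at 10177 and 10429 normalized counts in DMSO, 5567 and 4736 in TGF-β, and 2805 and 3076 in TGF-β+2APB. Its log2 change between the treated groups was -0.81 (SE 0.10, edgeR adjusted p = 0.00824). Usp27x, a deubiquitinase, had the largest called rise in TGF-β, at 1.09, and Lats2, a kinase of the Hippo pathway, the largest in TGF-β+2APB, at 0.86. The study asked whether AKT and NF-kB bear on Snai1. It used network analysis, inhibitors, blots of phosphorylated proteins, and binding of the NF-kB subunit p65 at the Snai1 promoter. The values here are RNA levels of pathway genes, which do not measure pathway activity, and that question was not tested. Of 14 AKT and NF-kB pathway genes, 1 was higher and 3 lower in each treated group against DMSO. Nfkbia, the NF-kB inhibitor that NF-kB itself induces, had the largest fall in both, at 7846 and 7163 normalized counts in DMSO, 3543 and 3434 in TGF-β, and 3104 and 3186 in TGF-β+2APB (log2 -1.25, SE 0.08, edgeR adjusted p = 0.000117 for the last against DMSO). Ikbkb (0.34 in TGF-β) and Mtor (0.32 in TGF-β+2APB) were the genes called higher. Between the treated groups edgeR called 0 of the 14, with 3 at an unadjusted p under 0.05, DESeq2 called 2, and the count ran from 0 to 8 over 16 alternatives.

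**Figure D5:**
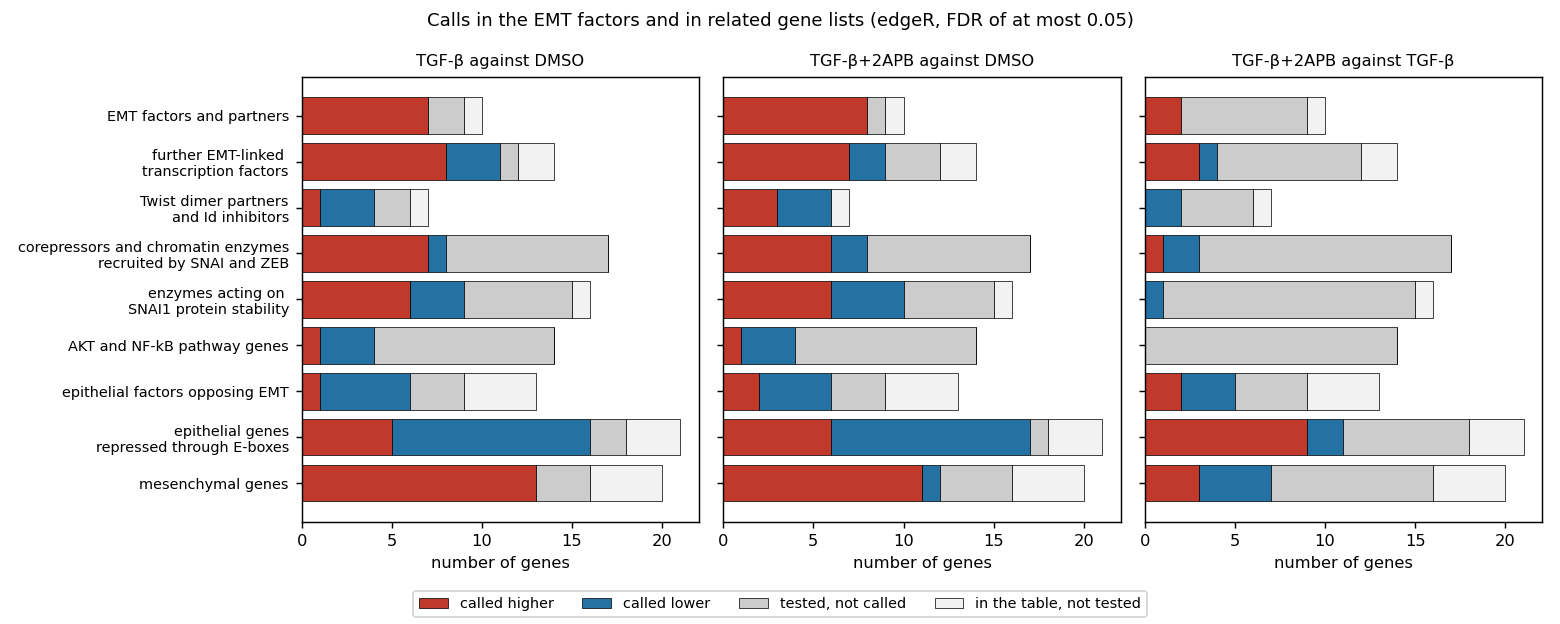
Number of genes (horizontal axes, from 0) called higher, called lower, tested but not called, and not tested, in the members and in 8 related lists for each comparison. The members have 7, 8 and 2 genes called higher and none lower, and the mesenchymal list 13 higher and none lower in TGF-β against DMSO.

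The members were also set beside factors that hold the epithelial state. Of 9 tested genes, 1 was higher and 5 lower in TGF-β than in DMSO, 2 were higher and 4 lower in TGF-β+2APB than in DMSO, and 2 were higher and 3 lower between the treated groups. Ehf, an epithelial ETS factor, stood at 6429 and 6388 normalized counts in DMSO, 742.2 and 662 in TGF-β, and 346.5 and 404.5 in TGF-β+2APB, in the opposite order to Ets1. Its log2 changes from DMSO were -3.19 and -4.09. Klf4, which encodes a Krüppel-like factor, was lower in TGF-β than in DMSO (-1.25, edgeR adjusted p = 0.00208) and higher in TGF-β+2APB than in TGF-β (1.85, SE 0.16, edgeR adjusted p = 0.00375), at 1713 and 1679 normalized counts against 399.3 and 541.6. Foxa2 had the largest called fall between the treated groups, at -0.96. Gata3, the luminal mammary factor, was higher in both treated groups, at 2.28 and 2.34, from 33.4 and 28.9 normalized counts in DMSO.

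Genes that SNAI and ZEB proteins are known to repress through E-boxes were read from 18 tested epithelial genes. In TGF-β against DMSO 5 were higher and 11 lower, in TGF-β+2APB against DMSO 6 were higher and 11 lower, and between the treated groups 9 were higher and 2 lower. Cdh1 stood at 91180 and 90601 normalized counts in DMSO, 58611 and 47241 in TGF-β, and 35058 and 41060 in TGF-β+2APB. Its groups were separated, with log2 differences of -0.78 and -1.26 from DMSO (edgeR adjusted p = 0.0055 and 0.000682) and a difference of -0.48 between the treated groups that did not pass (edgeR adjusted p = 0.057). Krt19, a simple epithelial keratin, stood at 45112 and 42139 in DMSO, 12510 and 8776 in TGF-β, and 1687 and 3441 in TGF-β+2APB, and was lower in all 3 comparisons. Muc1, a membrane mucin, had the largest called fall in TGF-β, at -3.48. The genes called higher in TGF-β were Cldn4, St14, Krt8, Krt18 and Pkp2, led by Cldn4, a claudin, which went from 2 and 6.2 normalized counts in DMSO to 712.9 and 742.9 in TGF-β and 2087 and 1529 in TGF-β+2APB (log2 7.45 and 8.76 against DMSO). Cldn4 met the filter on low values only through the treated groups, so the size of its rise over DMSO rests on few DMSO counts. Pkp3, a desmosomal plakophilin, had the largest called rise between the treated groups, at 2.14 (edgeR adjusted p = 0.0216).

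Of 16 tested mesenchymal genes, 13 were higher and 0 lower in TGF-β than in DMSO, 11 were higher and 1 lower in TGF-β+2APB than in DMSO, and 3 were higher and 4 lower between the treated groups. Vim, the mesenchymal intermediate filament, stood at 89244 and 83748 normalized counts in DMSO, 130433 and 115807 in TGF-β, and 135086 and 145916 in TGF-β+2APB. It was higher against DMSO by 0.51 and 0.70 on the log2 scale, and the difference of 0.19 between the treated groups did not pass (edgeR adjusted p = 0.19). Mmp9, a matrix metalloproteinase, rose from 27.5 and 20.7 in DMSO to 3300 and 3275 in TGF-β (log2 7.08) and stood at 1340 and 937.2 in TGF-β+2APB, with the largest called rise of the list over DMSO in both. Itga5, an integrin subunit of the fibronectin receptor, had the largest called rise between the treated groups, at 0.95 (edgeR adjusted p = 0.00494). Spp1, which encodes osteopontin, was lower in TGF-β+2APB than in TGF-β, at -2.20 (edgeR adjusted p = 0.00307).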

How the data were processed

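Read counts per gene, as deposited by the authors and not normalized, were used for 6 NMuMG libraries (DMSO, TGF-β and TGF-β+2APB, 2 each, grouped by their labels). Per the labels and the methods of the study, single-end reads were checked with FastQC 0.11.2, aligned with TopHat2 2.0.13 and counted per gene with featureCounts. The methods name a human build, the submitters' notes name mm10, and the gene symbols are mouse. All 111072 deposited counts are even, and the cause was not tested. Libraries were scaled by TMM to their mean size, genes averaging 20 or more normalized counts were kept, and the 3 groups were fitted together with edgeR 4.0.16 (quasi-likelihood F test, two-sided, Benjamini-Hochberg adjustment over 13353 genes, calls at 0.05). SE is the log2 fold change divided by the root of F. The script was tested on simulated counts. DESeq2 1.42.0, other scalings and filters, fits without each library, and fits with the replicate number as a term were the alternatives, and ranges over alternatives include DESeq2. Lengths came from GENCODE and promoters from RefSeq.

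The members and lists were chosen with earlier results of these data known. Genes of the related lists were named as the largest called rise and fall in each comparison, plus Cdh1, Krt19 and Vim, and any other was named after its values were seen. A few listed genes are not reported here and were left out of the lists and marker sums. The 2 nearest genes were named for each tested member. p-values and intervals of the main fit rest on the spread between 2 libraries per group, pooled over the 3 groups and moderated across genes. They do not measure the spread of the 2 compared groups alone. The limit for a count of 0 covers counting error only.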

Additional observations from a re-analysis of the deposited data

How the results depend on the processing

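Of 423 refits of single members, 396 kept their direction and side of the threshold, 19 lost a call, 4 gained one and 4 turned. The turned values were small: Prrx1 in TGF-β against DMSO (-0.10 to 0.31 over fits without each library, below 0 without DMSO replicate 2, at -0.01, or TGF-β replicate 2), Prrx1 in TGF-β+2APB against DMSO (-1.05 to 0.13, above 0 without TGF-β+2APB replicate 1), and Snai2 between the treated groups (-0.46 to 0.0034, above 0 without TGF-β replicate 2). Leaving out each library, with the lone library of its group assumed to vary like the others, gave 5 to 7 members called in TGF-β against DMSO (5 without either DMSO library), 5 to 8 in TGF-β+2APB against DMSO (5 without DMSO replicate 1), and 0 to 3 between the treated groups (0 without TGF-β+2APB replicate 1, 1 without either DMSO library, 3 without either TGF-β library). Over all genes the calls then ran from 2753 to 7641, 4355 to 9006 and 834 to 5405, highest without TGF-β replicate 2. At an adjusted p of 0.01 there were 3369 calls in TGF-β against DMSO and 601 between the treated groups, with 0 members (4 at an unadjusted p under 0.05, 3 by DESeq2 at 0.05). Between the treated groups DESeq2 called 3698 genes, and the fit of 4 libraries 860 genes and 1 member. Snai1 fell below the filter, and so was not tested, with counts divided by 2 or with at least 10 counts asked of each library. List calls between the treated groups ran from 0 to 10 both for the 17 corepressors and for the 15 SNAI1 stability enzymes, which in TGF-β against DMSO ran from 4 to 14. Scaling by library size moved the median of all genes by at most 0.07 and turned no member. Depth limits Snai1, Prrx1 and Twist1.

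Deviations of same-numbered libraries correlated at r = 0.15 for DMSO with TGF-β, -0.46 for DMSO with TGF-β+2APB and -0.26 for TGF-β with TGF-β+2APB. With 2 libraries per group these values cannot settle whether libraries of different groups were paired. With the replicate number as a block, 4737, 6358 and 1342 genes were called, and 7, 8 and 2 members, with Ets1 between the treated groups at an edgeR adjusted p of 0.0495. With the TGF-β+2APB numbers crossed, a choice made after seeing the data, 5706, 7232 and 2465 genes were called.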
